A study of Mus musculus with 12 samples.

Results

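The glutathione S-transferases measured here are 10 mouse genes with 16 array probes, of 20370 tested features and 39429 probes in all. They are the alpha class genes Gsta2, Gsta3, Gsta4, Gm3776 and Gm10639, the mu class genes Gstm1 and Gstm2, the omega class gene Gsto1, the theta class gene Gstt1 and the microsomal gene Mgst1. The members were taken by the gene name in the array annotation. They were chosen by the log2 signals and detection calls that set YFP+ against YFP− samples, so their values in that contrast are a description and carry no test. RNA came from macrophages that were sorted from pancreas tumours, 6 samples labelled YFP+ and 6 labelled YFP−, and was hybridised to one-colour Agilent arrays. Both groups came from female C57/B6 mice aged 8 to 10 weeks with implanted tumours, and their genotype is not provided. The series names wild-type, KPC and FLT3-CRE/LSL-YFP mice without tying them to these samples, and neither the tumour line nor the other sorting markers are given. The sample titles carry tumour numbers, written here as 1 to 6, each once in a YFP+ and once in a YFP− title. Both samples of a number may have been sorted from the same tumour, which is not stated, and the main fit did not pair them. Nothing says which samples come from separate animals, so errors reflect sample-to-sample spread, part of which may be technical.

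Glutathione S-transferases join the tripeptide glutathione to reactive, electrophilic compounds, among them drugs, carcinogens and products of lipid peroxidation, which makes them easier to export. The soluble enzymes work as dimers and are divided into classes by sequence, while the microsomal enzymes are an unrelated family of membrane proteins. Alpha class genes are best known from liver, intestine and other epithelia, and several of them are induced through the transcription factor Nrf2.

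In RefSeq (GRCm38.p6) 4 of the alpha class members lie side by side on chromosome 9, from the start of Gsta4 at 78191966 to the end of Gsta2 at 78347192, with Gm3776 and Gm10639 between them. Gsta3 lies on chromosome 1, so the alpha members are not all from 1 cluster. The other members lie on chromosome 3 (Gstm1, Gstm2), 6 (Mgst1), 10 (Gstt1) and 19 (Gsto1). Gsta1, next to Gm3776, had no probe under its own name, and the Gm3776 probe lists an accession of Gsta1 as well. Judged against the Gm10639 and Gsta2 probes, the mm9 position of the Gm3776 probe corresponds to the end of Gsta1. In RefSeq Gsta1 spans 78230669 to 78242683, before the start of Gm3776 at 78257129. Values given for Gm3776 are those of this probe and may be of Gsta1. Probes of Gm10639, Gsta2 and Gm3776 resemble each other, and a 30-base stretch is shown because it bears on how separately the 3 genes were measured. Capitals mark the 3 positions at which the stretches differ.
Gm10639: tggcctctaatGgtttgcaattataaaaTA
Gsta2: tggcctctaatTgtttgcaattataaaaTA
Gm3776: tggcctctaatGgtttgcaattataaaaAG
Where the probes aligned, Gm10639 and Gsta2 shared 58 bases with 1 mismatch and 1 gap base. Gm10639 and Gm3776 shared 47 with 3 mismatches and 1 gap base, and Gsta2 and Gm3776 shared 46 with 4 mismatches. The Gm3776 probe is shifted by 10 bases, so its pairs aligned over about 50 of 60 bases. RNA of one of these genes can bind the probe of another, so their values are uncertain as to the gene. No probe of a non-member gene shared a run of 25 bases with a member's probe. The Gsta4 probe is distinct from these.
Gsta4: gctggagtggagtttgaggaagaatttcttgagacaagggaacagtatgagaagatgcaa

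The genes Gm3776 and Gm10639 also share nearly all of the 250 bases before their start sites, which are shown as background on the sequences. Their probes are similar and the Gm3776 probe may measure Gsta1, so whether both genes follow the same pattern across samples was not tested. In the RefSeq promoter table (GRCm38.p6) the stretch of Gm3776 is chr9:78256879-78257128 and that of Gm10639 is chr9:78289678-78289927, both on the plus strand. Of 250 bases 246 are identical, and capitals mark the bases that differ or have no partner.
Gm3776: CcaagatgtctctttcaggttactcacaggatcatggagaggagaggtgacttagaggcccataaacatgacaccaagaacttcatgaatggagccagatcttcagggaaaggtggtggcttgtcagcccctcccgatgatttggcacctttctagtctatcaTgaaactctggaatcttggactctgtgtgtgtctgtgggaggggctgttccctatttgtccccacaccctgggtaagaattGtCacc
Gm10639: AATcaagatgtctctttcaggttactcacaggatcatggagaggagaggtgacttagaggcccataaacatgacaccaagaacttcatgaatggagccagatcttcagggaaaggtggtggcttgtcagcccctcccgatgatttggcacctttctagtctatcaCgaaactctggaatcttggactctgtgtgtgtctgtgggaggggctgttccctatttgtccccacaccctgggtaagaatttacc
The Gsta2 stretch was 70.8% identical to that of Gm3776, and the Gsta3 stretch 58.8%. Both strands of the 250 bases were searched for TGACNNNGC, the core of the antioxidant response element, which occurs in 10.2% of 32851 promoters. The table held 9 of the 10 members, with 11 start sites. The motif was found before Gsta3, 121 bases from the start, and before 1 of the start sites of Mgst1, at 56 bases. TGANTCA, a form of the AP-1 motif, occurs in 6.75% of promoters and before 0 of the members. Both motifs begin with TGA, so a site can match both.

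All 5 alpha class members were lower in YFP+ samples, with log2 differences (YFP+ minus YFP−) of −5.84 to −1.71, and the other 5 members had differences of −1.24 to −0.14. The median difference was −4.73 for the alpha class and −0.48 for the mu, omega, theta and microsomal members, beside −0.03 for all 20370 features. Among the alpha values, those of Gsta2, Gm3776 and Gm10639 come from similar probes and may not be separate measurements. Gsta3 and Gsta4, with probes unlike these, differed by −3.90 and −1.71. Levels are log2 of the processed signal over each array's 75th percentile, so 0 is the brightness that 75% of spots do not reach. The fit across all features called 4 members lower at an adjusted p under 0.05 (Gsta2, Gsta4, Gm3776 and Gm10639) and 0 higher, where 1.41% of all features were called lower, 0.334% higher and 1.75% in either direction. In 3 members (Gsta2, Gm3776 and Gm10639) every YFP+ array was below every YFP− array, as were 1.46% of all features, while 0.427% had every YFP+ array above every YFP− array. These counts follow from how the members were chosen.

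The probe named for Gm3776, a predicted gene beside Gsta1, had the widest difference of the members, though its position corresponds to Gsta1. Its level was −7.11 at the lowest, −7.01 at the median and −3.54 at the highest in YFP+ samples, against −1.55, −0.62 and 0.70 in YFP− samples. The groups did not overlap; YFP+ tumour 6 stood above the other YFP+ arrays, the nearest of which was at −6.39. The probe (chr9:78090411-78090470, mm9) was well above background on 1 of 6 YFP+ arrays, that of tumour 6, and on 6 of 6 YFP− arrays. The difference was −5.84 (SE 0.61, n = 6 per group), a 57.1-fold lower signal in YFP+ samples. It was −5.61, −6.25 and −5.64 within slides 1, 2 and 3, each of which held 2 arrays of each group. The size depends on the treatment of dim spots: after normexp background correction the signal was 7.41-fold lower, with the same direction.

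Gm10639, a predicted gene between Gm3776 and Gsta2, was measured by 2 probes. At the brighter one (chr9:78153243-78153302, mm9) the lowest, median and highest levels were −6.98, −5.13 and −2.51 in YFP+ samples, against −1.46, 0.11 and 1.52 in YFP− samples. The groups did not overlap, with tumour 6 the highest in both groups and tumour 4 the lowest in both. The difference was −5.06 (SE 0.67, n = 6 per group), or 33.4-fold lower in YFP+ samples, and 7.14-fold lower after normexp correction. This probe too was above background on 1 of 6 YFP+ and 6 of 6 YFP− arrays. The other probe (chr9:78153199-78153258), which also lists an accession of Gsta2, was above background on 1 of 6 YFP+ and 3 of 6 YFP− arrays and did not pass the filter on dim probes. Its groups overlapped, and its difference was −3.00, −1.69 and 0.64 within the slides, so the probes of Gm10639 disagreed in size. On slide 3 this probe was above background on no array, so the sign there is not a measured direction.

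Gsta2, an alpha enzyme known for reducing lipid and organic hydroperoxides, stayed at background on all 6 YFP+ arrays. Its probe (chr9:78178856-78178915, mm9) gave −7.07, −6.68 and −4.62 at the lowest, median and highest in YFP+ samples, against −3.30, −1.64 and −0.03 in YFP− samples. The groups did not overlap, and all 6 YFP− arrays were above background. On the scale of the processed signal it was at least 10.1-fold lower in YFP+ samples. This bound took for each YFP+ array the higher of its own signal and the dimmest signal above background there. The measured difference was −4.73 (SE 0.54), and −5.15, −4.53 and −4.53 within the slides. After normexp correction the signal was 4.25-fold lower, so the bound does not hold under that setting.

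Gsta3, in mice the alpha enzyme that detoxifies the epoxide of aflatoxin, varied most within groups. Its brighter probe (chr1:21255189-21255248, mm9) gave −7.47, −5.11 and −2.77 at the lowest, median and highest in YFP+ samples, against −3.38, −0.67 and 0.18 in YFP− samples. The groups overlapped: YFP+ tumours 2 and 5 lay above YFP− tumour 1. It was above background on 3 of 6 YFP+ and 6 of 6 YFP− arrays, and differed by −3.90 (SE 0.94), a difference the fit did not call. Within the slides the difference was −1.96, −4.40 and −5.33. The other Gsta3 probe differed by −3.28 (SE 1.07), with 2 of 6 YFP+ and 5 of 6 YFP− arrays above background. The signal of the brighter probe was 14.9-fold lower in YFP+ samples and 5.32-fold lower after normexp correction. The difference was called after that correction, with the tumour number as a fixed or random block, with slide as a block, with an intensity trend, and without YFP+ tumour 2 (−4.37) or YFP− tumour 1 (−4.32).

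Gsta4, which conjugates the lipid peroxidation product 4-hydroxynonenal, was the only alpha member measured above background on all 12 arrays. Its lowest, median and highest levels were −3.74, −3.00 and −2.05 in YFP+ samples, against −2.14, −0.92 and −0.53 in YFP− samples. The groups overlapped only where YFP+ tumour 2, at −2.05, lay above YFP− tumour 4, at −2.14. The difference was −1.71 (SE 0.35, n = 6 per group), or 3.27-fold lower in YFP+ samples, and −1.55, −2.32 and −1.26 within the slides. The probe was printed 10 times on each array, and its spots ranged over 250 to 324 intensity units on the dimmest array, YFP+ tumour 6, and over 2051 to 2473 on the brightest, YFP− tumour 1. The call was kept in 4 of the 12 fits that left out 1 array and lost without any of YFP+ tumours 1, 4, 5 and 6 or YFP− tumours 1, 2, 5 and 6, while those fits gave differences of −1.68 to −1.53. It was also lost without any 1 slide, with the tumour number as a fixed block (alone or with slide), with brightness as a covariate, with quantile normalization, with median centring and with the deposited table.

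**Figure D1:**
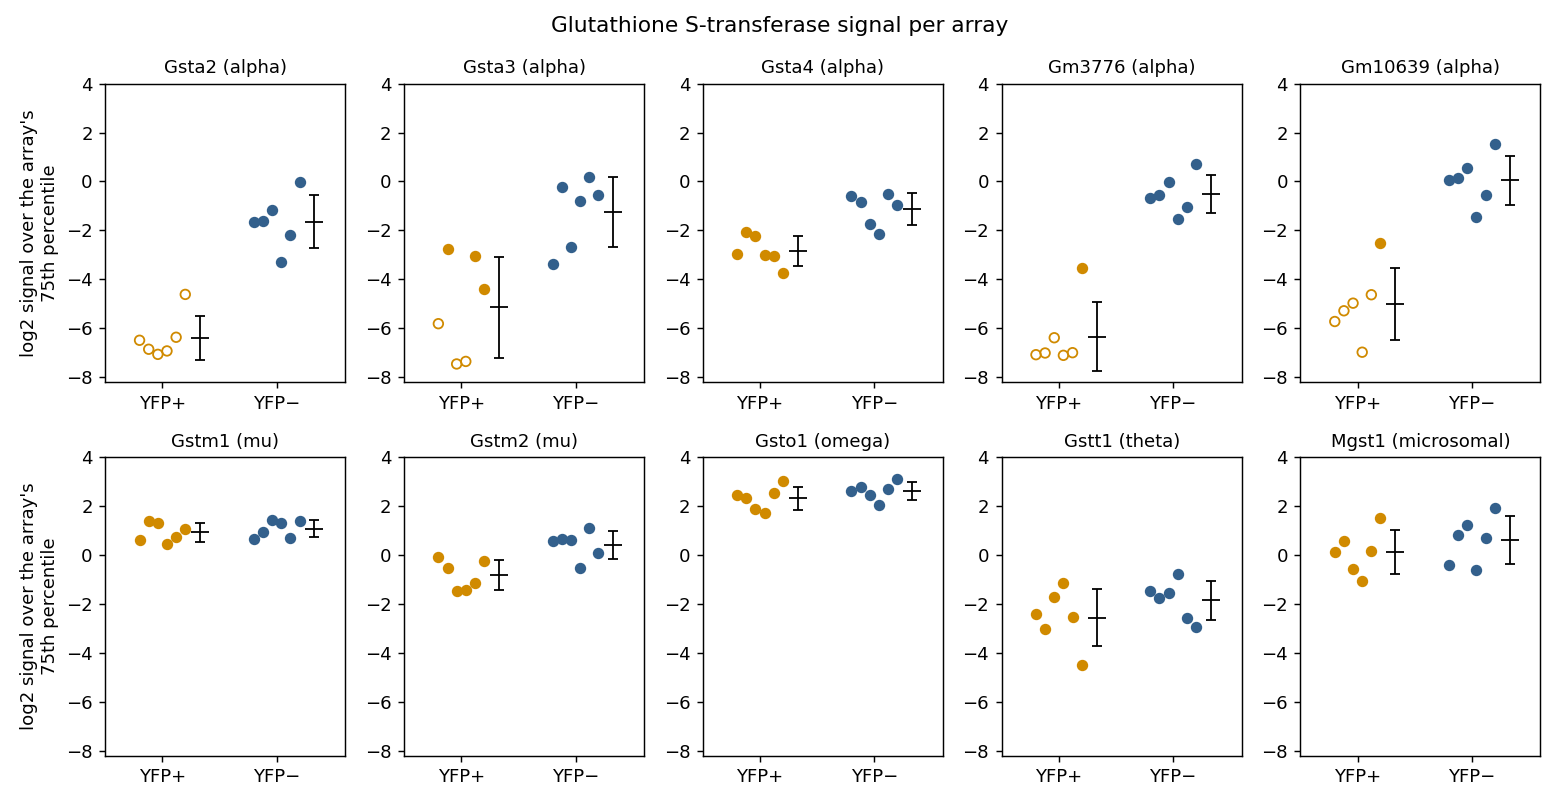
Level of each member on each array, as log2 signal over the array's 75th percentile, with YFP+ (orange) left of YFP− (blue), tumours 1 to 6 from left to right in each group, and mean ± SD (n = 6) beside them; open points were not well above background. Gsta2, Gm3776 and Gm10639 do not overlap between groups, Gsta3 and Gsta4 do, and the 5 members of the other classes lie above background on every array.

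The mu class members differed from each other. Gstm1 ranged from 0.44 to 1.39 in YFP+ samples, with a median of 0.92, against 0.68 to 1.44 in YFP− samples, with a median of 1.13. The groups lay on top of each other, with a difference of −0.14 (SE 0.23) at each of its 2 probes. Its direction turned to 0.11 with array brightness in the model and to 0.066 when arrays were centred on their medians. Gstm2 was at −1.45, −0.82 and −0.09 at the lowest, median and highest in YFP+ samples, against −0.52, 0.60 and 1.11 in YFP− samples. The YFP+ samples were lower in 6 of 6 tumour numbers, and the ranges overlapped. The difference was −1.24 (SE 0.33), 2.36-fold lower in YFP+ samples, and the fit did not call it. It was called with slide as a block and without YFP− tumour 4 (−1.43). The array annotation puts this Gstm2 probe on chromosome 18 and 1 of the Gstm1 probes on chromosome 5, away from the genes on chromosome 3, although each lists an accession of its own gene. The other Gstm2 probes differed by −1.85 (SE 0.48) and −1.42 (SE 0.61), in the same direction.

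Gsto1, an omega enzyme with thiol transferase and dehydroascorbate reductase activity, gave 1.72, 2.39 and 3.05 at the lowest, median and highest in YFP+ samples, against 2.04, 2.66 and 3.11 in YFP− samples. The ranges overlapped almost wholly, and the difference was −0.30 (SE 0.26), negative in 6 of 6 tumour numbers. Gstt1, a theta enzyme that acts on small halogenated compounds, gave −4.51, −2.47 and −1.14 in YFP+ samples, against −2.96, −1.65 and −0.76 in YFP− samples. Its difference of −0.72 (SE 0.54) was within the spread of the samples, and within slides it was −1.51, −0.32 and −0.32. Mgst1, a membrane-bound transferase that also reduces lipid hydroperoxides, gave −1.04, 0.17 and 1.51 in YFP+ samples, against −0.62, 0.77 and 1.92 in YFP− samples. Its difference was −0.48 at both probes (SE 0.50 and 0.30), and it turned to 0.41 with array brightness in the model. At the probes that stand for them, all 5 of these mu, omega, theta and microsomal members were above background on all 12 arrays. The dimmest Gstm2 probe was above background on 11 of 12.

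**Figure D2:**
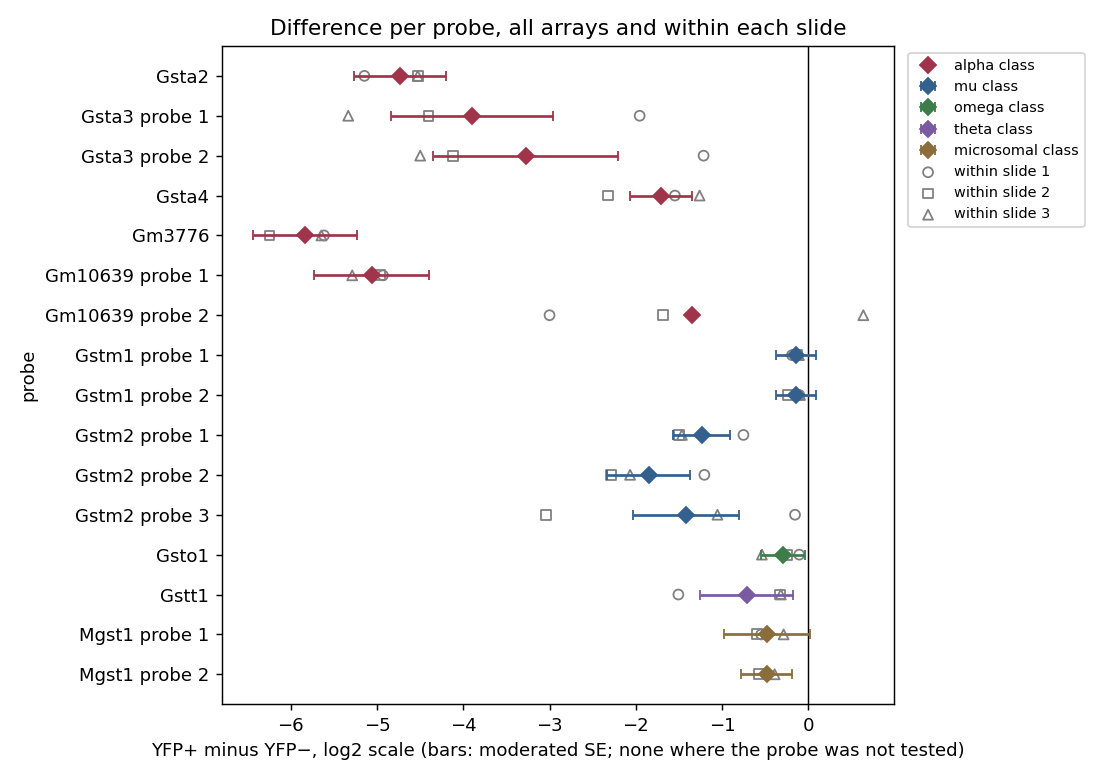
Difference in log2 signal, YFP+ minus YFP−, at each of the 16 probes (diamonds, coloured by class, with moderated standard errors except for the dimmer Gm10639 probe, which was not tested) and within each slide (open symbols, 2 arrays of each group). The alpha probes lie between −1.35 and −5.84 and the probes of the other classes between −0.14 and −1.85. Only the dimmer Gm10639 probe crosses 0 within a slide, on whose arrays it was never above background.

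Averaged over its 5 members on each array, the alpha class level was −5.15 ± 0.88 in YFP+ samples and −0.90 ± 0.66 in YFP− samples (SD, n = 6 each), a difference of −4.25. The same mean over the other 5 members was 0.01 ± 0.19 in YFP+ samples and 0.58 ± 0.21 in YFP− samples, a difference of −0.57. The alpha mean includes Gsta2, Gm3776 and Gm10639, whose similar probes may count the same signal more than once. All 16 probes had a lower mean in YFP+ samples, as did 10758 of the 20370 tested features. Bulk values do not separate fewer cells of a type from less RNA per cell: the 2 cannot be told apart here.

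Among samples of the same group, 3 alpha members varied together. Taking each array's deviation from its group mean, Pearson's r over the 12 arrays was 0.90 between Gm3776 and Gm10639, 0.88 between Gsta2 and Gm3776 and 0.88 between Gsta2 and Gm10639. These 3 are the genes with similar probes. Their r values lean on YFP+ tumour 6, at −3.54 for Gm3776 and −4.62 for Gsta2, with the nearest YFP+ arrays at −6.39 and −6.37. Of the YFP+ arrays only that of tumour 6 was above background for Gm3776 and Gm10639, and none was for Gsta2. The r values without that array were not computed. Gsta4 did not vary with them (r from −0.30 to −0.12), and Gsta3 little (r from 0.03 to 0.24). Across classes, Gsto1 and Mgst1 varied together (r = 0.85) and with Gm10639 (0.84 and 0.82), while Gstt1 varied in the opposite direction to Gsto1 (−0.92) and Mgst1 (−0.88). The values share arrays and slides, and they describe these 12 arrays only.

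Leaving out the members themselves, the genes with symbols whose deviations were most like those of Gm3776, over the same 12 arrays, were Tmem63a, Arsg, Slc48a1, Mrap and Tmem104 (r from 0.89 to 0.92). For Gsta4 they were Tbc1d10a, Bend4, Fap, Tom1l1 and Vta1 (0.82 to 0.96), and for Gstm1 they were Slmap, Heatr5b, Tmem189, Srrm2 and Tnfrsf26 (0.89 to 0.91). Gsto1 was most like Chil4, Zyx, Lgals4, Ubald2 and Hp (0.93 to 0.95), and Mgst1 most like Tbx6, Ecm1, Mertk, Abhd11 and Yipf3 (0.95 to 0.97). Of these 25 genes only Lgals4, a galectin of gut epithelium, was itself called between the groups, 7.97-fold lower in YFP+ samples (limma adjusted p = 9.0e-04). These are the highest of 20370 features, so high values occur by selection. Those for Gm3776 also lean on YFP+ tumour 6 and on YFP+ signals near background.

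Markers of other cell types differed between the same groups. The summed signal of 12 ductal and tumour epithelial genes, in units of the array's 75th percentile, was 5.62 to 12.2 in YFP+ samples and 18.0 to 48.6 in YFP− samples. All 12 had lower means in YFP+ samples, 5 were called lower, and none was at background throughout a group. They included the keratins Krt8 (−2.59), Krt18 (−2.11) and Krt19 (−2.94), each called. Fibroblast genes summed to 13.3 to 34.0 in YFP+ samples against 50.6 to 132 in YFP− samples (7 of 11 tested called lower). Red cell genes summed to 8.90 to 54.5 in YFP+ samples against 61.5 to 153 in YFP− samples (4 of 5). Acinar genes summed to 4.69 to 37.1 in YFP+ samples and 15.1 to 146 in YFP− samples (1 of 12). Neutrophil genes summed to 0.991 to 2.45 in YFP+ samples and 2.48 to 6.84 in YFP− samples (0 of 6 called, with 5 lower and 1 higher at an unadjusted p under 0.05). B and plasma cell genes summed to 3.34 to 19.2 in YFP+ samples and 3.02 to 7.08 in YFP− samples (0 of 7 called, with 1 lower and 3 higher at an unadjusted p under 0.05). Endothelial genes summed to 1.85 to 2.74 in YFP+ samples and 1.23 to 5.33 in YFP− samples, and T and NK cell genes to 0.675 to 1.67 in YFP+ samples and 0.473 to 0.903 in YFP− samples, with 0 called and 0 at an unadjusted p under 0.05 in both lists. Macrophage genes, all 12 above background on every array, summed to 198 to 327 in YFP+ samples and 221 to 366 in YFP− samples, with 0 called and 0 at an unadjusted p under 0.05. Klrb1c, which marks NK cells, and Dpt of fibroblasts were above background on no YFP+ array.

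The order of the arrays by alpha level matched their order by epithelial sum between groups and only partly within them. YFP− tumour 4 had the lowest epithelial sum of its group, 18.0, and also its lowest Gm3776 (−1.55), Gm10639 (−1.46), Gsta2 (−3.30) and Gsta4 (−2.14). Gsta3 was at −0.78 in that sample, above the lowest of its group, −3.38 in tumour 1. The same sample had the lowest fibroblast (50.6) and red cell (61.5) sums of its group, and those sums separated YFP+ from YFP− samples as the epithelial sum did. Its acinar sum was 138, and its endothelial sum, 5.33, was the highest of its group. The match in this sample and between the groups was seen alike in the epithelial, fibroblast and red cell sums. The neutrophil sum separated the groups as well, at most 2.45 in YFP+ and at least 2.48 in YFP− samples, but was not lowest in this sample. YFP+ tumour 6 had the highest Gm3776, Gm10639 and Gsta2 of its group with an epithelial sum of 10.5, whereas tumour 1 had a higher sum, 12.2, with Gm3776 at −7.09. The part of the other cells' RNA in the alpha values was not tested.

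**Figure D3:**
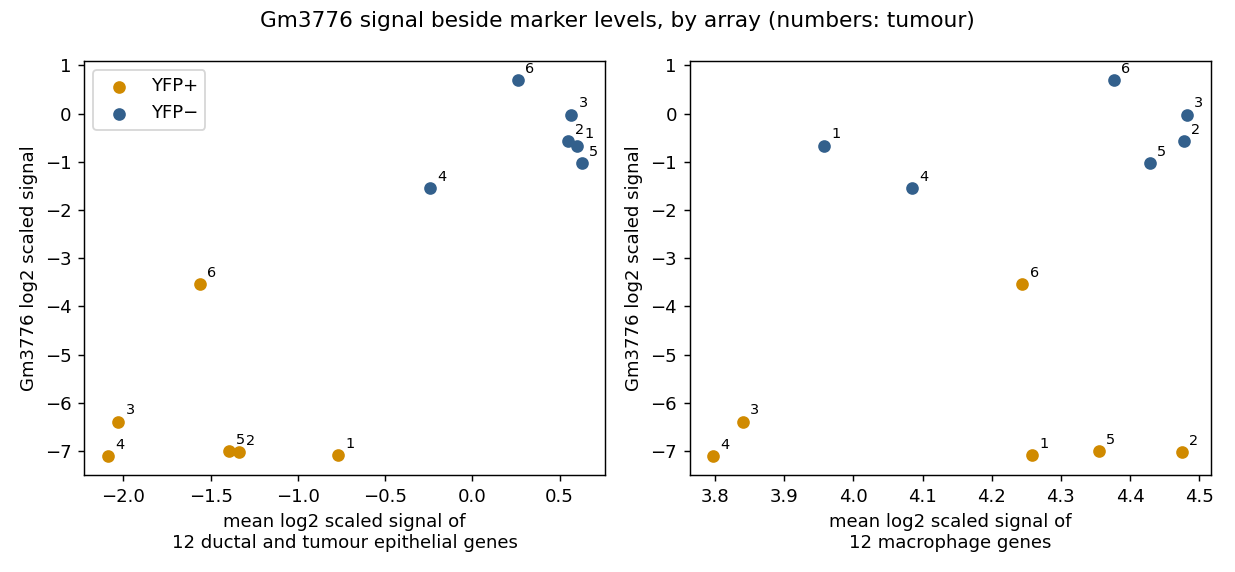
Log2 level of Gm3776 on each array (vertical axis) beside the mean log2 level of 12 ductal and tumour epithelial genes (left) and of 12 macrophage genes (right), YFP+ in orange and YFP− in blue, with tumour numbers. The groups separate on the epithelial axis and overlap on the macrophage axis; YFP+ tumour 6 is the highest YFP+ point for Gm3776 but not for the epithelial genes. Fibroblast, red cell and neutrophil genes, not drawn here, separate the groups as well.

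Array brightness also differed between the groups. The 75th percentile of processed signal was 3264 to 3931 in YFP+ samples and 2121 to 3332 in YFP− samples, and 63.4% to 66.3% of spots were above background in YFP+ samples against 61.6% to 64.3% in YFP− samples. With brightness as a covariate the differences were −6.23 for Gm3776, −5.04 for Gm10639, −4.72 for Gsta2, −2.16 for Gsta4 and −2.32 for Gsta3. No member was called in that fit, in which 11 of all features were, against 356 without the covariate. The SE rose with the covariate, from 0.61 to 1.14 for Gm3776 and from 0.54 to 1.02 for Gsta2. Only YFP− tumour 1, at 3332, lay within the YFP+ range of brightness, so that fit could hardly separate brightness from group. With 6 arrays in a group, precision is also limited by their number.

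Other genes around the alpha members were searched for the same difference. Within 500 kb of the chromosome 9 probes lay 22 other features, 11 of them tested, and 1 was called. It is a transcript without a gene name (chr9:78169106-78169165, mm9), between Gm10639 and Gsta2. Its levels were −7.35, −4.73 and −2.50 at the lowest, median and highest in YFP+ samples, against −2.45, −0.52 and 0.78 in YFP− samples. The groups touched at −2.50 and −2.45 without overlapping, and the difference was −4.34 (SE 0.88, limma adjusted p = 0.027, 20.2-fold lower in YFP+ samples). It was above background on 3 of 6 YFP+ and 6 of 6 YFP− arrays, and its probe matched 23 of 26 aligned bases of the dimmer Gm10639 probe. Gclc, the catalytic subunit of the enzyme that limits glutathione synthesis, lay within the same distance and was not called (−0.81, SE 0.30). Around Gsta3 on chromosome 1, 7 of 13 features were tested by limma, with differences of −0.37 to 0.58, and 0 were called (0 at an unadjusted p under 0.05).

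Of 91 other genes of glutathione and foreign compound metabolism tested, 3 fell in YFP+ samples and 0 rose by limma, with 13 at an unadjusted p under 0.05 and a median difference of −0.13. Of all tested features 11.2% had an unadjusted p under 0.05, the share beside which such counts stand here. None of the 19 other glutathione S-transferases tested was called (median −0.19, with 2 at an unadjusted p under 0.05). Mgst2, a microsomal relative that can also make leukotriene C4, had a level of −7.09 to −0.66 in YFP+ samples and −0.95 to 0.95 in YFP− samples, and a difference of −3.21 (SE 0.90, limma adjusted p = 0.12). The mu class gene Gstm5 differed by −1.61 (SE 0.50, limma adjusted p = 0.17) and the theta class gene Gstt2 by −0.44 (SE 0.29).

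Of 22 genes of glutathione synthesis, breakdown and recycling 0 were called (median −0.03, with 2 at an unadjusted p under 0.05). The dipeptidase Dpep1, which splits the cysteinylglycine left by glutathione breakdown, differed by −2.69 (SE 0.82, limma adjusted p = 0.16), and the glutaredoxin Glrx by 0.34 (SE 0.18). The 5 glutathione peroxidase genes tested had a median of −0.18 with 0 called and 0 at an unadjusted p under 0.05, and Gpx3, Gpx2 and Gpx4 differed by −0.56, −0.92 and −0.18. Of 10 conjugate exporters 0 were called (median −0.02, 1 at an unadjusted p under 0.05), and Abcb1a, Abcc5 and Abcc4 differed by −0.71, −0.60 and −0.47.

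Of 20 genes of the Nrf2 pathway tested, 1 fell and 0 rose (median −0.14, with 4 at an unadjusted p under 0.05). It was the aldo-keto reductase gene Akr1b8, at −1.19 to −0.20 in YFP+ samples and 0.23 to 1.31 in YFP− samples, without overlap. Akr1b8 fell 2.60-fold in YFP+ samples (log2 difference −1.38, SE 0.24, limma adjusted p = 0.013). Me1, the cytosolic malic enzyme, differed by −2.86 (SE 0.76, limma adjusted p = 0.097) without overlap of the groups. It was called at a probe above background on all 12 arrays (−2.31, limma adjusted p = 0.0014) and with the mean of its probes (−3.20, limma adjusted p = 0.0012). After normexp correction Me1 was called too (−2.25, limma adjusted p = 0.020), while 27 of 32 alternatives left it uncalled. The ferritin heavy chain gene Fth1 differed by −0.49 (SE 0.18). Nqo1 and Aox1 were above background on no YFP+ array and were not tested.

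Among 15 other phase 1 and 2 enzymes, 2 aldehyde dehydrogenase genes fell and 0 rose (median −0.25, with 4 at an unadjusted p under 0.05). Aldh1a3, which makes retinoic acid from retinal, was at −2.07 to −1.42 in YFP+ samples and 0.51 to 1.74 in YFP− samples, above background on all 12 arrays and without overlap. It fell 7.58-fold in YFP+ samples (log2 difference −2.92, SE 0.23, limma adjusted p = 1.8e-04) and was called with brightness in the model as well. Aldh3a1, which oxidises lipid-derived aldehydes, differed by −4.27 (SE 0.81, limma adjusted p = 0.018, 19.4-fold lower in YFP+ samples), with 2 of 6 YFP+ and 6 of 6 YFP− arrays above background, so the fold rests partly on dim spots. After normexp correction Aldh3a1 was 4.45-fold lower. Cyp3a13, a cytochrome P450 gene, differed by −0.97 (SE 0.39). Akr1b8 and Aldh3a1 were not called with brightness in the model, nor Akr1b8 without any 1 slide, nor Aldh3a1 without slide 1 or slide 2. The marker sums given for epithelium, fibroblasts, red cells and neutrophils moved with these genes too, and their part was not tested.

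**Figure D4:**
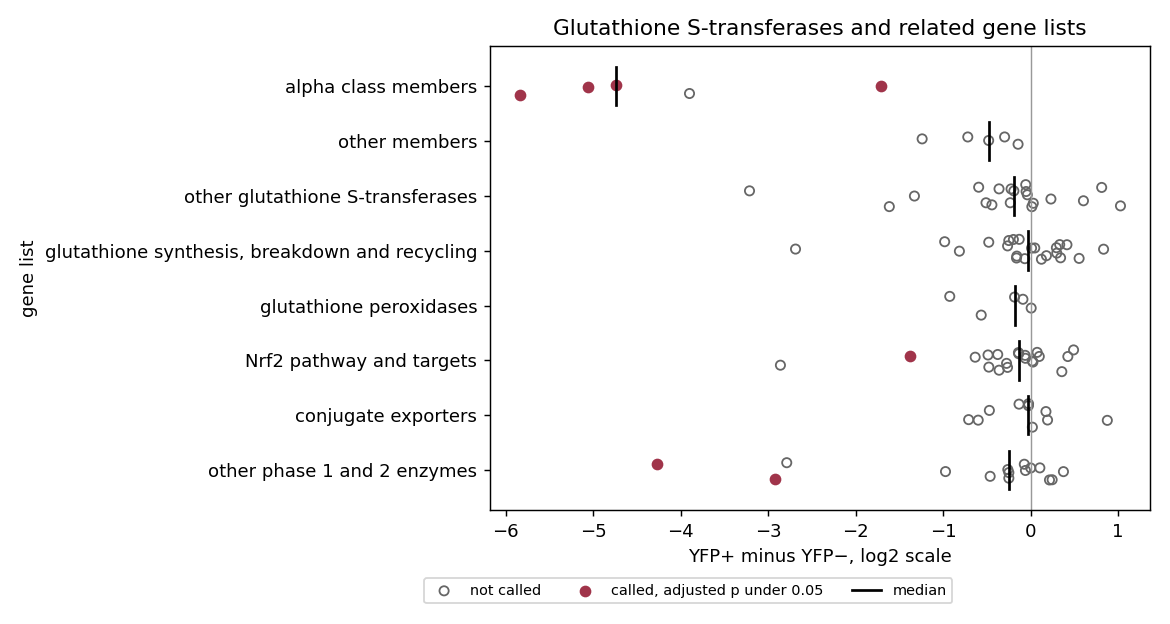
Difference in log2 signal, YFP+ minus YFP−, for each tested gene of the 2 sets of members and of 6 related gene lists; filled points were called by limma at an adjusted p under 0.05, and black bars are medians. The alpha median lies at −4.73, and the medians of the other members and lists lie between −0.48 and −0.02. The alpha points include Gsta2, Gm3776 and Gm10639, whose probes are similar.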

How the data were processed

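Transcript levels were measured on 12 one-colour arrays, 6 YFP+ and 6 YFP−, on 3 slides. Per the labels' protocols, RNA was isolated with an ENZO kit, amplified with Sigma WTA2 and labelled with Cy5. The intensity values deposited for each array were made with Agilent Feature Extraction 11.5.1.1, per the file headers, and the processed signal has background and spatial trend removed but no scaling between the arrays. A table of values that the authors deposited is on a log2 scale, judged by those values. The median was 8.83 in every column, how it was normalized is not given in the sources used here, and it matched the scanner values in rank (Spearman at least 0.99995 per array) and in direction. It served as an alternative.

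Control spots (1377 per array) and flagged spots were left out, spots of a probe were averaged, and each array's 75th percentile of log2 red processed signal was subtracted. A probe was kept if it was well above background on 6 or more of 12 arrays, and the brightest probe stood for a gene. No probe was saturated. For 28330 probes an accession matched RefSeq genes (GRCm38.p6), which served to update the names of genes other than the members. The comparison of YFP+ with YFP− used limma 3.58.1 (R 4.3.3), a linear model with group alone and moderated variances, adjusted by Benjamini-Hochberg over 20370 features at a threshold of 0.05. Errors are limma's moderated standard errors. Probe positions are in mm9, per the file headers. Sequences come from the array files and the RefSeq promoter table.

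The members, gene lists, marker lists and tests were chosen with earlier results of these data known. Genes named besides the members are those called in a list, the 3 with the smallest p in each list, the 5 most like each of 5 members, and neighbours within 500 kb, as well as up to 3 genes of a marker list. The alternatives were the tumour number, slide or both as a block, brightness as a covariate, normexp with an offset of 50, quantile normalization, median centring, the deposited table, other filters and ways to choose a probe, an intensity trend, array weights, other thresholds, and leaving out each array or slide. Tables were made with pandas 2.3.3 and numpy 2.4.6 in Python 3.11.15, figures with matplotlib 3.10.9, and random blocks with statmod 1.5.0. The number of columns of the deposited table not used was 0.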

Additional observations from a re-analysis of the deposited data

Results flagged for a closer look

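In 2 members the YFP+ sample of tumour 6 stood far from the other YFP+ samples. Gm3776 was at −3.54 in YFP+ tumour 6, with the nearest YFP+ sample at −6.39, and that gap made up 0.799 of the range of the group. Gsta2 was at −4.62 in the same sample, with the nearest at −6.37 and a share of 0.715. Both shares exceed the 95% critical value for 6 samples in Dixon's test. Of 56 groups of samples examined, these 2 did so, and chance flags about 1 in 20 groups. The genes' probes are similar, so the 2 values are not independent. Without that sample the differences were −6.40 (SE 0.36) for Gm3776, −5.09 (SE 0.47) for Gsta2 and −5.56 (SE 0.54) for Gm10639.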

How the results depend on the processing

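Over 32 alternatives to the fit, the count of called members stayed within 1.5 times the original count of 4 in 29, and every alpha member kept its negative sign in all that measured it. Of all features 356 were called, of the members 4 and of the other glutathione genes 3. With array brightness as a covariate these counts were 11, 0 and 1. With normexp correction they were 541, 5 and 7, and with probes above background on all 12 arrays 233, 1 and 3, a filter that leaves out 4 of the alpha members. Without slide 1 the counts were 151, 3 and 1, without slide 2 they were 112, 2 and 1, and without slide 3 they were 196, 3 and 2. These fits use 8 arrays. At a threshold of 0.01 the counts were 140, 3 and 1, and at 0.1 they were 562, 6 and 4. With slide as a block they were 556, 6 and 4, the added members being Gsta3 and Gstm2. Leaving out 1 array at a time gave 266 to 383, 3 to 5 and 3 to 3.

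Signs turned for Gstm1 (0.11), Mgst1 (0.41) and Gstt2 (0.40) with brightness as a covariate, and for Gstm1 (0.066) and Gpx4 (0.026) with median centring. Those settings moved the median of all features by 0.18 and 0.21, and keeping all dim probes moved it by −0.15. The cause of the other changes was not tested. Gsta4 lost its call in 18 of its 32 alternatives, Gm10639 in 2 of 31 (brightness and without slide 2), and Gm3776 and Gsta2 in 1 of 31 each, with brightness as a covariate. Across the alternatives the difference ranged from −6.40 to −2.89 for Gm3776, from −5.56 to −2.84 for Gm10639, from −5.09 to −2.09 for Gsta2, from −4.87 to −2.32 for Gsta3 and from −2.16 to −1.27 for Gsta4, and the small end was normexp for all but Gsta3.

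The tumour numbers were also used as a replicate block, which called 296 features, 4 members (Gsta3 in place of Gsta4) and 3 other genes as a fixed block, 431, 5 and 3 as a random one, and 201, 3 and 4 together with slide. Samples of equal number carry the same tumour number in their titles, and whether they come from the same tumour is not stated. The correlation of their deviations from the group means was −0.30, 0.11, −0.13, 0.37, 0.19 and 0.28 for tumours 1 to 6. In 3 of 6 the best match was the own number. Signal near background limits the folds of Gm3776, Gm10639, Gsta2, Gsta3 and Aldh3a1 in YFP+ samples.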
